A study of Mus musculus with 12 samples.

Results

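Cytochrome P450 genes of families 1 to 3 were examined in mouse liver RNA after a single bout of exercise. The members were taken by name, as each gene of the deposited table whose symbol begins with Cyp, then 1, 2 or 3, then a letter. This gave 59 of the 17432 genes, and the 41 with a mean of at least 10 estimated counts per liver are described here. All 41 passed the filter on low counts and were tested. The other 18 had means between 0.0833 and 8.67 counts and none of them was tested. The member just above the limit was Cyp2d11 (mean of 12.2 counts), and the member just below it was Cyp2s1 (8.67 counts).

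Cytochrome P450 enzymes of these families are heme proteins of the endoplasmic reticulum that insert an oxygen atom into drugs, pollutants, steroids and fatty acids. They receive their electrons from cytochrome P450 oxidoreductase, encoded by Por, with some help from cytochrome b5. Their genes are controlled by receptors that sense foreign and endogenous chemicals. AHR acts mainly on family 1, CAR (encoded by Nr1i3) on Cyp2b and part of Cyp2c, and PXR (encoded by Nr1i2) on Cyp3a. In mouse liver many of them are expressed chiefly around the central vein, and several differ between males and females.

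RNA-Seq was performed on whole livers of 12 male wild-type C57BL/6J mice aged 8 to 10 weeks. All mice had been kept on a daytime feeding schedule and made used to the treadmill, and all were refed for 3 hours on the last day. The Sedentary group (n = 6) then rested, and the Exercise group (n = 6) ran for 3 hours at 14 m/min. The sample labels name no transgene and no drug. The labels number the livers within each group but do not state how the animals were housed or processed, so p-values measure the spread between these samples.

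The libraries held 18745379 to 19324461 estimated counts. Genes of families 1 to 3 took 2.63% ± 0.137 of all counts in the sedentary livers (SD, n = 6; 2.46% to 2.78%) and 2.57% ± 0.146 in the exercised livers (SD, n = 6; 2.32% to 2.76%). Levels are given as CPM, that is, counts scaled to library size with TMM factors, when groups are compared for 1 gene, and as the deposited FPKM, which also divides by transcript length, when genes are compared with each other. Markers of hepatocytes were abundant in each liver, with a summed level of 106540 to 145500 CPM in sedentary and 130910 to 150080 CPM in exercised livers, and 2 of the 5 (Alb and Hnf4a) were higher with exercise. Markers of Kupffer cells (0 of 5), cholangiocytes (0 of 4) and lymphocytes (0 of 1 tested, of 4) did not pass the test in either direction. Of 5 sinusoidal endothelial markers Lyve1 was higher and Kdr was lower, and of 5 stellate cell markers Lrat and Des were lower. Of 5 cardiac muscle markers, 4 were lower, with summed levels of 10.3 to 21.5 CPM in sedentary and 0.058 to 10.8 CPM in exercised livers. Myh6, the cardiac myosin gene, was at 4.29 to 10.6 CPM in sedentary livers, 5.8 CPM in Exercise 1 and 0 CPM in the other 5 exercised livers. The part of these shifts in the results below was not tested. For the liver cell types, fewer cells and less RNA per cell cannot be told apart in whole liver. The source of the cardiac muscle RNA was not tested.

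The described genes had mean levels from 0.178 to 3975 FPKM over the 12 livers, which the plot of FPKM by liver shows. Cyp2e1, which oxidizes ethanol and acetone, was the highest, at 3851 ± 407 FPKM in sedentary and 4100 ± 356 FPKM in exercised livers (SD, n = 6 each). Cyp3a11, the main hepatic Cyp3a enzyme of the mouse, followed at 2815 ± 203 and 2901 ± 136 FPKM. Both kept the first and second place in each group. Cyp2a5, the coumarin hydroxylase, was at 1180 ± 156 and 1113 ± 168 FPKM, and Cyp2c29 at 1187 ± 121 and 991 ± 89.8 FPKM, and these neighbours in the order did not differ beyond their spread within either group. At the low end, Cyp1b1 was at 0.158 ± 0.0542 and 0.197 ± 0.0619 FPKM and Cyp2d11 at 0.515 ± 0.171 and 0.315 ± 0.148 FPKM. The gene with the greatest move in rank was Cyp2b10, from place 30 of 41 in sedentary livers to place 23 in exercised livers.

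**Figure D1:**
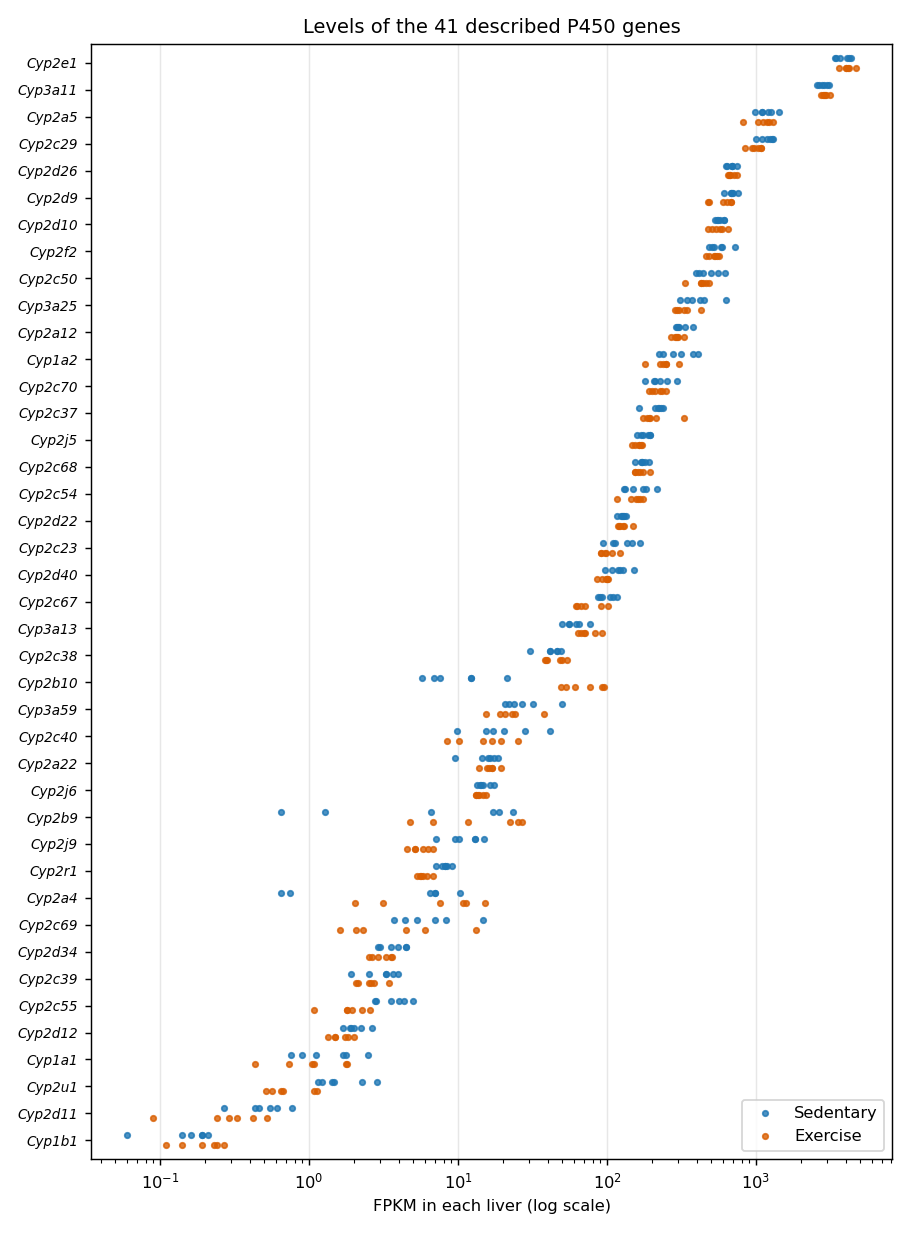
FPKM on a log scale for the 41 described genes, ordered by mean level, with 1 point for each of the 6 sedentary and 6 exercised livers. Cyp2e1 and Cyp3a11 lead in each liver, and Cyp2b10 is the gene whose exercised livers lie to the right of its sedentary livers without overlap.

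Few of these genes changed with exercise, and none of the 8 most abundant passed the test. Cyp2b10, the phenobarbital-inducible P450, rose 6.84-fold, and Cyp3a13 rose slightly. Cyp2u1, Cyp2j9 and Cyp2c55 fell to 0.47, 0.529 and 0.544 times their sedentary mean, and Cyp2r1, Cyp2c67 and Cyp2d40 fell by smaller amounts. In all, 8 of the 41 described genes passed an adjusted p of 0.05 (19.5%), against 42.4% of the 12344 genes tested in the same comparison (quasi-likelihood test in edgeR, with p-values adjusted by Benjamini-Hochberg over all genes tested). Of these 8, 2 were higher (21.1% of all genes tested) and 6 were lower (21.3%). With library size alone as the scaling, the calls over all genes shifted from 2603 higher and 2626 lower to 1767 higher and 3735 lower, and those of the P450 genes to 2 higher and 8 lower.

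Changes of at least 2-fold were found for Cyp2b10 (higher) and Cyp2u1 (lower), against 3.94% of all genes tested (2.35% higher and 1.59% lower). With 1 liver left out, the log2 fold change of Cyp2u1 ran from -1.21 to -0.87, the latter without Sedentary 3, and it was under 2-fold also without Sedentary 1, Exercise 3 or Exercise 6. In 4 of the 41 genes each exercised liver lay outside the range of the sedentary livers, 1 above it and 3 below, against 22.3% of all genes tested (11.7% above and 10.6% below). The median log2 fold change of the 41 genes was -0.049, and that of all genes tested was -0.0028. The plot of changes by gene shows that most genes lay within a narrow band on both sides of 0.

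**Figure D2:**
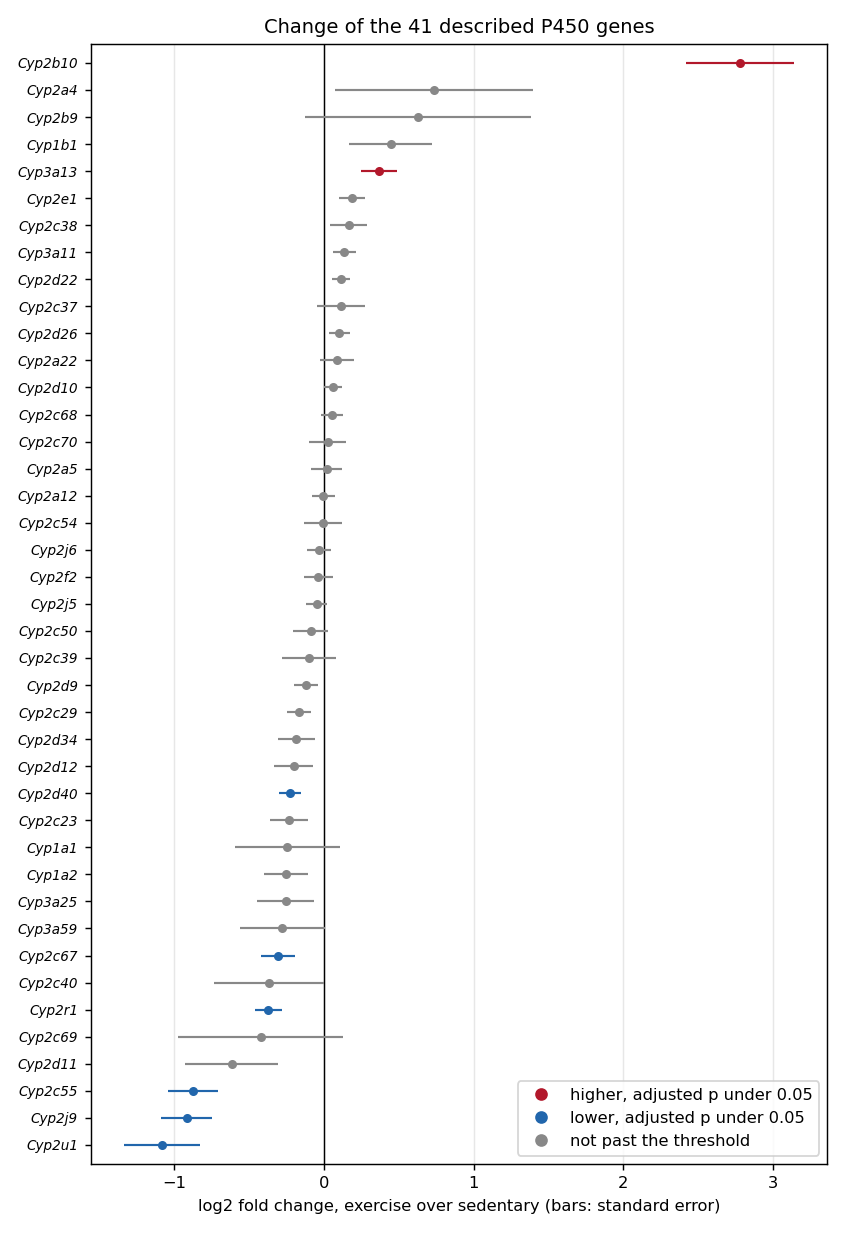
Log2 fold change (exercise over sedentary) of the 41 described genes with bars for the standard error of the edgeR fit (6 livers against 6). Cyp2b10 stands apart at 2.78, Cyp2c55, Cyp2j9 and Cyp2u1 are the lowest between -0.88 and -1.08, and 33 genes in grey did not pass an adjusted p of 0.05.

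Cyp2b10 (gene ID 13088) metabolizes barbiturates and other drugs and is the classic target of CAR. It lies on chromosome 7 of GRCm38 from 25897620 to 25926624, and overlaps no other annotated gene. Its level in sedentary livers was 9.59 CPM in the lowest, 17.2 CPM at the median and 40.5 CPM in the highest liver. In exercised livers it was 89.2, 134.8 and 177.7 CPM. The lowest exercised liver was thus above the highest sedentary liver, Sedentary 5. The log2 fold change was 2.78 (standard error 0.36, adjusted p = 0.000142 from edgeR). An exact two-sided permutation test over all relabellings of the livers gave p = 0.00216, the smallest it can give. Any gene whose groups do not overlap gives this p, here and below, so the test adds nothing to the lack of overlap. The permutation p is not adjusted for the number of genes. The log2 value stayed between 2.64 and 3.12 when each liver was left out in turn, and all 12 of these fits called it. Per length, it rose from 11 ± 5.82 to 71.3 ± 20.04 FPKM (SD, n = 6 each).

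Cyp2b9, the other described Cyp2b gene, lies on the same chromosome as Cyp2b10, from 26173411 to 26210661, and is expressed mainly in females. Its coding sequence was 86.2% identical to that of Cyp2b10. It varied far more between livers, from 1.17 to 44.6 CPM (median 20.4) in sedentary and from 9.09 to 54.4 CPM (median 31.6) in exercised livers. The groups overlapped over most of their range, and the log2 fold change of 0.63 (standard error 0.76) had an adjusted p of 0.549. The difference between the responses of Cyp2b10 and Cyp2b9 was not tested.

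The 250 bases before the RefSeq start of both genes are shown because Cyp2b10 changed most among the P450 genes and Cyp2b9 is its closest described relative (RefSeq, GRCm38.p6). Capitals mark matches, on either strand, to any of 5 short motifs. The letters GCGTG are the core that AHR bound to its partner ARNT recognizes. AGGTCA is the half-site shared by many nuclear receptors. The half-site of the glucocorticoid receptor reads TGTTCT. C/EBP factors recognize TTGCNNAA, and TATAAA is the box at which the transcription machinery assembles. The Cyp2b10 window lies at chr7:25897408-25897657 and the Cyp2b9 window at chr7:26173159-26173408, both on the plus strand.
Cyp2b10: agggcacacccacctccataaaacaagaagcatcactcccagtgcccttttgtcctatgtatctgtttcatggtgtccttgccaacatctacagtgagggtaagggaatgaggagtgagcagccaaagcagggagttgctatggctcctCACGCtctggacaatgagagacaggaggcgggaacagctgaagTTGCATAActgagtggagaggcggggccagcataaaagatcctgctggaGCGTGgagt
Cyp2b9: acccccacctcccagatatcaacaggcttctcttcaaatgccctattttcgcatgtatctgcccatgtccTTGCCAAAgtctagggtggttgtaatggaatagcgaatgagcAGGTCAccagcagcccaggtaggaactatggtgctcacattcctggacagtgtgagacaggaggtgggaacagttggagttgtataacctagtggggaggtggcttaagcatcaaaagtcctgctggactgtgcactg
The Cyp2b10 window held GCGTG at 2 places and TTGCNNAA at 1 place. Its end reaches past the annotated start of the gene (25897620), and the GCGTG nearest that end lies inside the annotated gene. The Cyp2b9 window held AGGTCA once, TTGCNNAA once and no GCGTG. The element through which phenobarbital acts on Cyp2b10 is known to lie farther upstream and is outside these windows.

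Por, the electron donor of the whole family and itself inducible through CAR and PXR, was higher in each exercised liver as well. It was at 240 CPM in the lowest, 313 CPM at the median and 470 CPM in the highest sedentary liver, and at 687, 762 and 915 CPM in exercised livers. The groups did not overlap. In edgeR this was a log2 fold change of 1.25 with a standard error of 0.15 (adjusted p = 3.34e-05). Its upstream window, shown as that of the partner that rose with Cyp2b10, lies at chr5:135688895-135689144 on the plus strand, and its capitals mark GCGTG or the complement of it, at 3 places.
Por: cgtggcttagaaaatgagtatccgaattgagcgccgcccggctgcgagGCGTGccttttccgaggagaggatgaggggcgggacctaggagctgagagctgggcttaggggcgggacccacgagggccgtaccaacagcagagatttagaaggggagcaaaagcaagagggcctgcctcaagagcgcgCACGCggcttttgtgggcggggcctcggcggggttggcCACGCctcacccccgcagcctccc
None of the other motifs listed above was found in it.

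**Figure D3:**
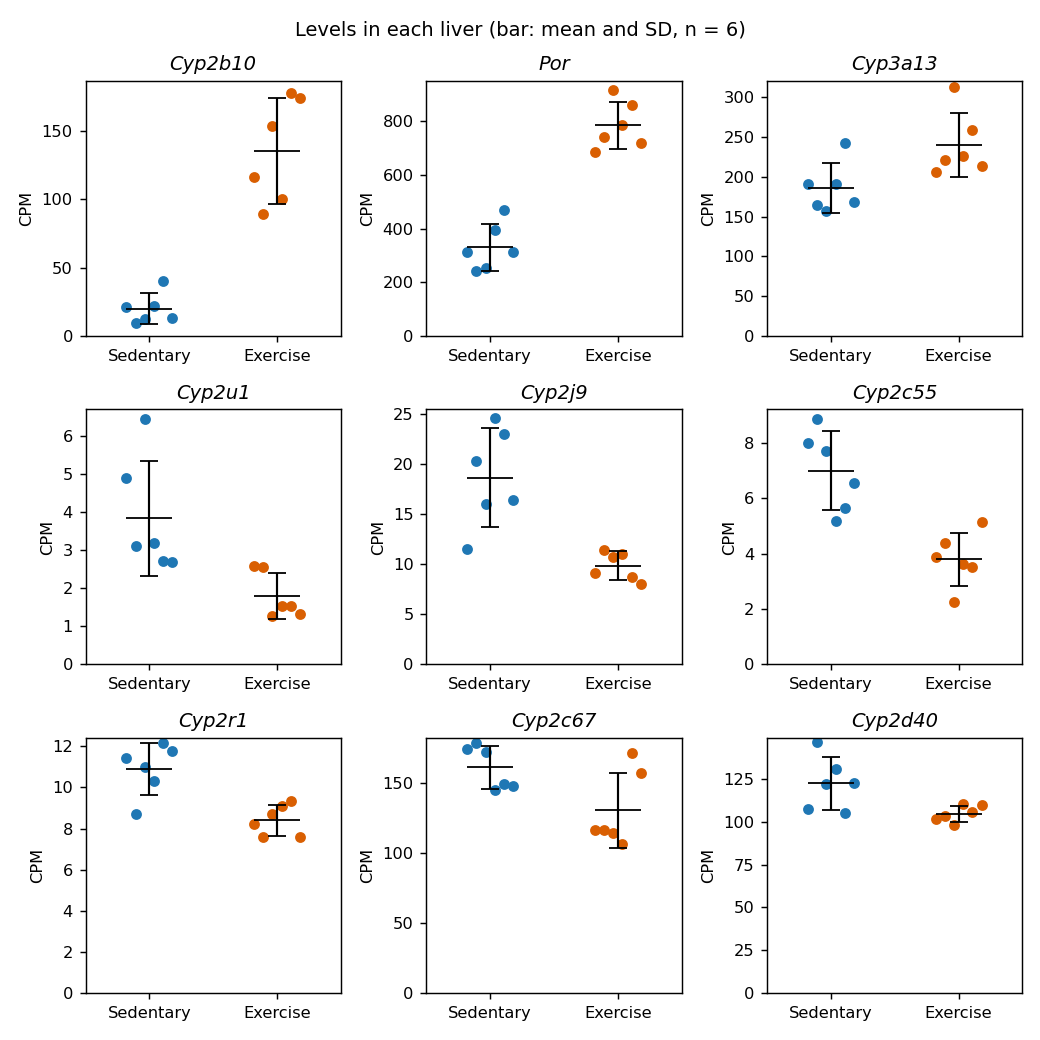
CPM in each of the 6 sedentary and 6 exercised livers for the 8 P450 genes that passed an adjusted p of 0.05 and for Por, with the mean and SD of each group on axes that start at 0. Cyp2b10 and Por are higher in each exercised liver, Cyp2u1, Cyp2j9 and Cyp2c55 are lower in each, and the groups overlap for Cyp3a13, Cyp2r1, Cyp2c67 and Cyp2d40.

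The genes that fell without overlap between the groups in CPM were Cyp2u1, Cyp2j9 and Cyp2c55. Cyp2u1 (gene ID 71519), a fatty acid hydroxylase, was at 2.68, 3.14 and 6.42 CPM (lowest, median and highest sedentary liver) and at 1.28, 1.54 and 2.57 CPM in exercised livers. The 2 highest sedentary livers were Sedentary 3 and Sedentary 1. Its log2 fold change was -1.08 (standard error 0.26, adjusted p = 0.00306 from edgeR; exact permutation p = 0.00216). It lies on chromosome 3 from 131288441 to 131303227 and overlaps 4930534D22Rik on the opposite strand, and whether the reads were counted by strand is not given in the sources used here.

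Cyp2j9 (gene ID 74519), a member of the arachidonic acid-oxidizing Cyp2j group, was at 11.5, 18.4 and 24.7 CPM in sedentary and at 8.01, 9.96 and 11.5 CPM in exercised livers. Its highest exercised liver, Exercise 2 (11.491 CPM), nearly reached its lowest sedentary liver, Sedentary 1 (11.499 CPM). The log2 fold change was -0.92 (standard error 0.17, adjusted p = 0.000785 from edgeR; exact permutation p = 0.00216). Cyp2c55 (gene ID 72082), which hydroxylates arachidonic acid and is inducible through CAR and PXR, was at 5.19, 7.13 and 8.88 CPM in sedentary and at 2.26, 3.76 and 5.14 CPM in exercised livers. All exercised livers lay below the sedentary range, with Exercise 3 the lowest. Its log2 fold change was -0.88 (standard error 0.17, adjusted p = 0.000471 from edgeR; exact permutation p = 0.00216). All 12 fits that left out 1 liver called each of Cyp2u1, Cyp2j9 and Cyp2c55. Neither Cyp2j9 nor Cyp2c55 shared a stretch of 100 bases with another annotated transcript.

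The windows of Cyp2j9 and Cyp2c55 are shown as those of the genes that fell without overlap and have a RefSeq window, at chr4:96591486-96591735 on the minus strand and chr19:39006769-39007018 on the plus strand.
Cyp2j9: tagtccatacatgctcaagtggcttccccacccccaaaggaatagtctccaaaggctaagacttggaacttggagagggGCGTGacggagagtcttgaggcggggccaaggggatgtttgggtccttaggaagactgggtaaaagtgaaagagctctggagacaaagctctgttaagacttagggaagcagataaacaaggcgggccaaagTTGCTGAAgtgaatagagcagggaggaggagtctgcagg
Cyp2c55: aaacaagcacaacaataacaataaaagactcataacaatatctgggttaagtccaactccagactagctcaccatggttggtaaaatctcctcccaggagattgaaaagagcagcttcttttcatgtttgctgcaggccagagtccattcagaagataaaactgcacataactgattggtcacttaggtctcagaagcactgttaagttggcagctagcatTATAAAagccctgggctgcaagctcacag
The Cyp2j9 window held GCGTG and TTGCNNAA once each. The TTGCNNAA lies inside the annotated Cyp2j9 gene, whose start on the minus strand is at 96591578. The Cyp2c55 window held TATAAA once and none of the other motifs.

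The remaining 4 genes that passed the test changed by less and overlapped between the groups in CPM. Cyp3a13 (gene ID 13113), a Cyp3a enzyme of liver and intestine, was at 157, 180 and 243 CPM in sedentary and at 206, 224 and 313 CPM in exercised livers, and rose by 0.37 on the log2 scale (standard error 0.12, adjusted p = 0.0206 from edgeR). Its highest value was that of Exercise 3, and 2 exercised livers exceeded the highest sedentary liver. It overlaps Gm15502 on the same strand. Cyp2r1, the main hepatic 25-hydroxylase of vitamin D, was at 8.69, 11.2 and 12.2 CPM in sedentary and at 7.57, 8.45 and 9.32 CPM in exercised livers, and fell by 0.37 on the log2 scale (standard error 0.090, adjusted p = 0.00275 from edgeR). The 1 sedentary liver inside the exercised range was Sedentary 2. On FPKM the groups did not overlap for Cyp2r1 (7.16 to 9.12 in sedentary and 5.27 to 6.81 in exercised livers). Cyp2d40 was at 104.9, 122.5 and 147 CPM in sedentary and at 98.3, 104.6 and 110.2 CPM in exercised livers, and fell by 0.23 on the log2 scale (standard error 0.073, adjusted p = 0.0184 from edgeR). Cyp2c67 was at 145, 161 and 178 CPM in sedentary and at 106, 116 and 171 CPM in exercised livers, and fell by 0.31 on the log2 scale (standard error 0.11, adjusted p = 0.0419 from edgeR). Exercise 5 and Exercise 6 lay within its sedentary range and the other 4 exercised livers lay below it.

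The call of Cyp2c67 was the least stable of the 8, since only 5 of the 12 fits without 1 liver made it. The fits that lost it were those without Sedentary 1, 2 or 3 and without Exercise 1, 2, 3 or 4 (adjusted p from 0.0809 to 0.0907). With Exercise 1 and Exercise 3 both left out, neither Cyp2c67 (adjusted p = 0.188) nor Cyp2d40 (adjusted p = 0.0906) passed the threshold. Cyp2c67 also shared 23.7% of its 100-base stretches with other transcripts, mainly Cyp2c69. Cyp2d40 shared 24.15% of its 50-base stretches, mainly with Cyp2d41-ps, and none of its 100-base stretches.

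The 8 most abundant genes overlapped between the groups and none passed the test. Cyp2e1 was at 5604, 6411 and 7218 CPM in sedentary and at 6384, 7123 and 8796 CPM in exercised livers, and the log2 fold change was 0.19 (standard error 0.087 and adjusted p = 0.0933 in edgeR). Exercise 3 was its highest liver. Cyp3a11 was at 4715, 5488 and 6368 CPM and at 5566, 5892 and 6507 CPM, for a log2 change of 0.14 (standard error 0.074, adjusted p = 0.149). Sedentary 5 was the highest sedentary liver for both genes in CPM. Without it, both were called as higher in edgeR (adjusted p = 0.0443 for Cyp2e1 and 0.0355 for Cyp3a11). On FPKM, Sedentary 5 was also the highest for Cyp3a11 (3080). For Cyp2e1, Sedentary 1 was the highest on FPKM (4309, against 4085 in Sedentary 5). Cyp2a5 was at 1608.5, 1914 and 2257 CPM and at 1420, 1980 and 2361 CPM, for a log2 change of 0.017 (standard error 0.10, adjusted p = 0.914), with Exercise 4 lowest and Exercise 3 highest.

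Cyp2c29, a CAR-inducible epoxygenase, was at 1692, 1987 and 2304 CPM in sedentary and at 1524, 1816 and 1940 CPM in exercised livers (log2 fold change -0.17, standard error 0.081, adjusted p = 0.113). It was called as lower when library size alone set the scale (log2 change -0.26, adjusted p = 0.010) and on the deposited FPKM values with limma (log2 change -0.26, adjusted p = 0.0145). Cyp2d26 was at 962, 1042 and 1229 CPM and at 1069, 1104 and 1306 CPM (log2 change 0.10, standard error 0.071, adjusted p = 0.269). Cyp2d9, a male-biased steroid hydroxylase, was at 998, 1056 and 1172 CPM and at 798, 1014 and 1132 CPM (log2 change -0.12, standard error 0.081, adjusted p = 0.254). Cyp2d10 was at 842, 861.5 and 932 CPM and at 832, 912 and 1025 CPM (log2 change 0.059, standard error 0.062, adjusted p = 0.475). Cyp2f2, which activates naphthalene and is the one periportal gene listed here, was at 790, 966 and 1263 CPM and at 823, 990 and 1041 CPM (log2 change -0.039, standard error 0.096, adjusted p = 0.780). The ranges of both groups overlapped for each of these genes.

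The family 1 genes, the main targets of AHR, did not pass the test. Cyp1a2, which oxidizes caffeine and estrogens, was at 394 to 695 CPM in sedentary and 345 to 552 CPM in exercised livers (log2 fold change -0.25, adjusted p = 0.189). Cyp1a1, the most AHR-inducible of them, was at 2.07 to 5.92 CPM and 1.12 to 4.71 CPM (log2 change -0.25, adjusted p = 0.616). Cyp1b1 was at 0.272 to 1.00 CPM and 0.586 to 1.36 CPM (log2 change 0.45, adjusted p = 0.213). Ahr itself was slightly higher with exercise (log2 change 0.28, adjusted p = 0.0300). Of 5 further AHR targets, 3 were tested (Tiparp, Nqo1 and Ugt1a6a) and none was called, with log2 fold changes of 0.050, -0.30 and 0.040, while Ahrr and Aldh3a1 were too low to test.

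The remaining genes of the Cyp2a, Cyp2c, Cyp2d, Cyp2j and Cyp3a groups did not pass the test. Cyp2a4 (log2 change 0.74, adjusted p = 0.410), Cyp2a22 (log2 change 0.085, adjusted p = 0.590) and Cyp2a12 (log2 change -0.0042, adjusted p = 0.970) were measured beside Cyp2a5. Of 13 Cyp2c genes, Cyp2c55 and Cyp2c67 were lower, and the log2 changes of the other 11 ranged from -0.42 (Cyp2c69) to 0.17 (Cyp2c38). Among them, Cyp2c70, which makes muricholic acids, had a log2 change of 0.024 (adjusted p = 0.899). Cyp2c23 had a log2 change of -0.23 (adjusted p = 0.154) and was called as lower with library size alone (adjusted p = 0.0355), on FPKM (adjusted p = 0.0433) and without Sedentary 6 (adjusted p = 0.0318). Of 8 Cyp2d genes, Cyp2d40 was lower, and the log2 changes of the other 7 ranged from -0.62 (Cyp2d11) to 0.12 (Cyp2d22). Beside Cyp2j9, the log2 changes were -0.049 (adjusted p = 0.618) for Cyp2j5 and, for Cyp2j6, -0.035 (adjusted p = 0.758). Beside Cyp3a13 and Cyp3a11, they were -0.26 (adjusted p = 0.309) for Cyp3a25 and, for Cyp3a59, -0.28 (adjusted p = 0.469).

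Since close relatives can share reads, the counts of each subfamily were also summed per liver, with no test. The Cyp2b sum was 13.6 to 85.4 CPM in sedentary and 109 to 223 CPM in exercised livers, a log2 ratio of means of 2.05, and the groups did not overlap. The other sums with several genes overlapped, with log2 ratios of -0.25 for Cyp1a, 0.017 for Cyp2a, -0.093 for Cyp2c, 0.016 for Cyp2d, -0.073 for Cyp2j and 0.097 for Cyp3a. The signs of the Cyp2d ratio depended on the scale (-0.078 with library size alone and -0.086 from FPKM). The Cyp2a sum was also lower on FPKM, with a mean of 1516 in sedentary and 1433 in exercised livers. The sum over all 59 genes was 23722 to 28710 CPM in sedentary and 24080 to 30181 CPM in exercised livers (log2 ratio 0.061). On FPKM the mean of this total was lower, at 14761 in sedentary and 14382 in exercised livers.

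The counts by function below stand against 42.4% of all genes tested that were called, 21.1% higher and 21.3% lower. Of 5 listed CAR- and PXR-inducible genes, Cyp2b10 was higher, Cyp2c55 was lower, and Cyp2c29, Cyp2c37 (log2 change 0.11, adjusted p = 0.614) and Cyp3a11 did not pass the test. None of the 8 genes listed as pericentral (Cyp1a2, Cyp2a5, Cyp2c29, Cyp2c37, Cyp2c50, Cyp2c54, Cyp2e1 and Cyp3a11) was called, with log2 fold changes from -0.25 to 0.19 and a median of 0.0046. Of the 11 arachidonic acid epoxygenases and hydroxylases that were tested, Cyp2c55 and Cyp2j9 were lower (18.2%), 2 of the 11 had a positive log2 fold change, and the median was -0.087. The listed symbol Cyp2c44 is, in RefSeq, an older name of Cyp2c23, whose values are given above and which is not in these counts. Of the 9 genes listed as female-biased, 4 were tested (Cyp2a4, Cyp2b9, Cyp2c40 and Cyp2c69) and none was called.

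Among 14 partners and regulators of these enzymes, 6 passed the test (42.9%, against 42.4% of all genes tested), 3 in each direction. Beside Por and Ahr, Hnf4a, a nuclear receptor that maintains hepatocyte genes, was higher (log2 change 0.59, adjusted p = 4.97e-06), from 453 to 589 CPM in sedentary and 710 to 900 CPM in exercised livers. Nr1i3, which encodes CAR, was lower in each exercised liver (105.4 to 128 CPM) than in each sedentary liver (143 to 214 CPM), and its log2 value fell by 0.55 (standard error 0.090, adjusted p = 0.000123). Cyb5b, the cytochrome b5 of the outer mitochondrial membrane, was lower without overlap (359 to 469 CPM against 260 to 330 CPM, log2 change -0.50, adjusted p = 3.12e-05). Cyb5r3, the cytochrome b5 reductase, was lower by a small amount (log2 change -0.24, adjusted p = 0.00917). The log2 changes of the other 8 ranged from -0.16 for the glucocorticoid receptor gene Nr3c1 to 0.23 for the heme oxygenase gene Hmox1, and included Nr1i2, which encodes PXR (log2 change 0.016, adjusted p = 0.909), the microsomal Cyb5a (0.048) and Alas1, which limits heme synthesis (-0.090).

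Of 11 CAR and PXR targets outside the P450 genes, 3 passed the test (27.3%, against 42.4% of all genes tested). Por and the stress gene Gadd45b (log2 change 1.25, from 1.46 to 4.89 CPM in sedentary and 5.48 to 8.47 CPM in exercised livers) were higher, and Aldh1a1, which makes retinoic acid, was lower (log2 change -0.20, adjusted p = 0.0308). The transporter gene Slco1a4 just missed the threshold (log2 change 0.47, adjusted p = 0.0504). The other 7 did not pass it, with log2 changes of 0.11 for Abcc2, 0.15 for Abcc3, 0.094 for Ugt1a1, -0.066 for Ces2a, -0.44 for Gsta1, -0.062 for Gstm1 and -0.090 for Alas1.

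P450 genes of the other families, which act on bile acids, sterols and fatty acids, were counted in the same fit for comparison. Of 27 with a mean of at least 10 counts, 8 passed the test (29.6%), 5 higher and 3 lower. By log2 change, those higher were Cyp39a1 (0.99), Cyp21a1 (0.61), Cyp27a1 (0.31), Cyp4f15 (0.26) and Cyp4f17 (0.24), and those lower were Cyp4a12b (-0.91), Cyp4a32 (-0.53) and Cyp7b1 (-0.48). The difference between these families and families 1 to 3 was not tested.

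The genes differed widely in their spread between livers of 1 group, as the plot of spread shows. The SD was 16.9% of the mean CPM for the median gene in sedentary livers and 14.9% in exercised livers. The 4 tested genes of the female-biased list were the 4 most variable by the mean of both groups. Cyp2b9 had an SD of 87.8% and 61.5% of the mean (sedentary and exercised), Cyp2a4, a testosterone hydroxylase, 70.5% and 61.6%, Cyp2c69 52.3% and 92.2%, and Cyp2c40 47.8% and 42.2%. The highest liver exceeded the lowest 46.4-fold for Cyp2b9 and 25.2-fold for Cyp2a4. Sedentary 3 and Sedentary 6 were the lowest sedentary livers for both, at 1.17 and 2.33 CPM for Cyp2b9 and at 1.22 and 1.04 CPM for Cyp2a4. The other sedentary livers were at 11.7 CPM or more for Cyp2b9 and at 10.3 CPM or more for Cyp2a4. In the exercised group Exercise 4 was the lowest for both genes, at 9.09 and 3.53 CPM. The steadiest gene in sedentary livers was Cyp2d10, with an SD of 3.68%.

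**Figure D4:**
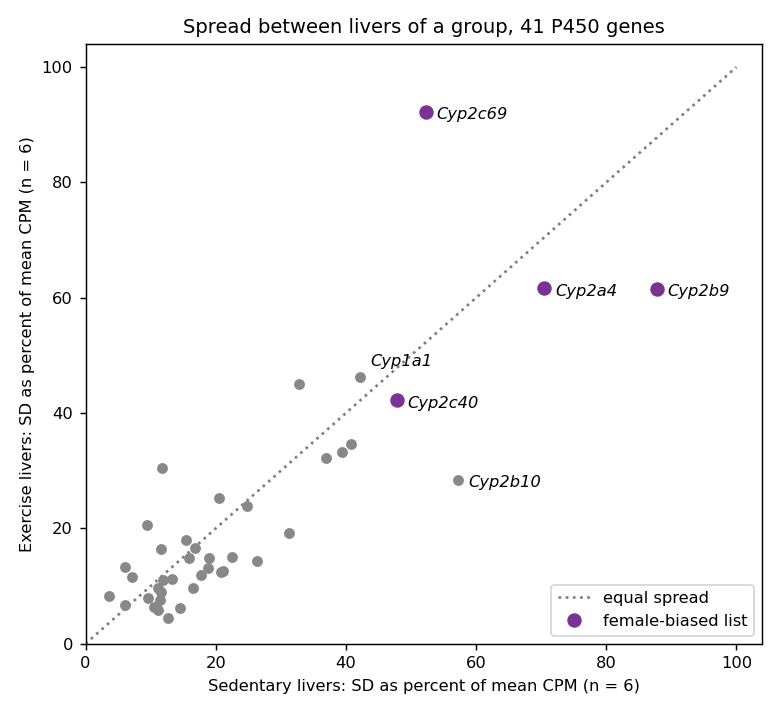
SD between the 6 livers of a group as a percent of the mean CPM, for sedentary (horizontal) and exercised livers (vertical), 1 point for each of the 41 described genes. The 4 genes of the female-biased list have the largest mean of both values, with Cyp2b9 at 87.8% and 61.5% and Cyp2c69 at 52.3% and 92.2%.

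Cyp2a4 differs from the abundant Cyp2a5 at 23 of 1482 coding bases, so only reads over these bases tell the transcripts apart within the coding part. Bases 580 to 669 of both coding sequences (GENCODE annotation of GRCm38, counted from the start codon) are shown as the part of the pair with 5 differing bases, which are in capitals.
Cyp2a4: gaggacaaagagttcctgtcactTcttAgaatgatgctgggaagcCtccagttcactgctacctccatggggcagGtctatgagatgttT
Cyp2a5: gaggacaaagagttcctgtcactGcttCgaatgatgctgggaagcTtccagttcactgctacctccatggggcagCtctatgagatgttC
Cyp2a4 shared 38.0% of its 50-base and 11.2% of its 100-base stretches with other transcripts, chiefly Cyp2a5. The level of Cyp2a5 was 1608.5 CPM in Sedentary 3 and 1740 CPM in Sedentary 6, where Cyp2a4 was at 1.22 and 1.04 CPM, and 1420 CPM in Exercise 4. The highest liver exceeded the lowest 1.66-fold for Cyp2a5, against 25.2-fold for Cyp2a4. In CPM the range of Cyp2a5 was the wider one (1420 to 2361, against 1.04 to 26.2 for Cyp2a4). Cyp2c40 and Cyp2c69 shared 44.1% and 36.3% of their 100-base stretches, mostly with each other, so their separate values are uncertain. In all, 24 of the 41 genes shared more than 10% of their 50-base stretches and 8 more than 10% of their 100-base stretches with another transcript. Cyp2b10 shared 10.2% of its 50-base stretches, mainly with Cyp2b13, which had a mean of 1.33 counts, and none of its 100-base stretches.

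In CPM, single livers were often high or low for many of these genes at once. Sedentary 5 was the highest sedentary liver for 19 of the 41 genes (46.3%), against 21.2% of all genes tested. Its share of all counts in families 1 to 3 (2.783%) was close to that of Sedentary 1 (2.775%). Exercise 3 was the highest exercised liver for 16 (39.0%), against 22.8%. Exercise 4 was the lowest exercised liver for 15 (36.6%, against 14.8%) and Sedentary 3 the lowest sedentary liver for 14 (34.1%, against 14.1%). These places were taken on CPM alone and can differ on FPKM, as for Cyp2e1 above. Close relatives that can share reads are counted here as separate genes. The heat map of deviations shows both signs in the columns of Sedentary 5, Exercise 3, Exercise 4 and Sedentary 3. The female-biased genes are its rows of strongest color. With Exercise 1 and Exercise 3 both left out, 6 of the 41 genes were called, 2 higher and 4 lower, and the log2 fold change of Cyp2b10 was 2.78 (adjusted p = 0.00114 from edgeR). All 6 sedentary livers held cardiac muscle RNA and Exercise 1 held the most of its group, so these calls do not bear on that difference between the groups.

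**Figure D5:**
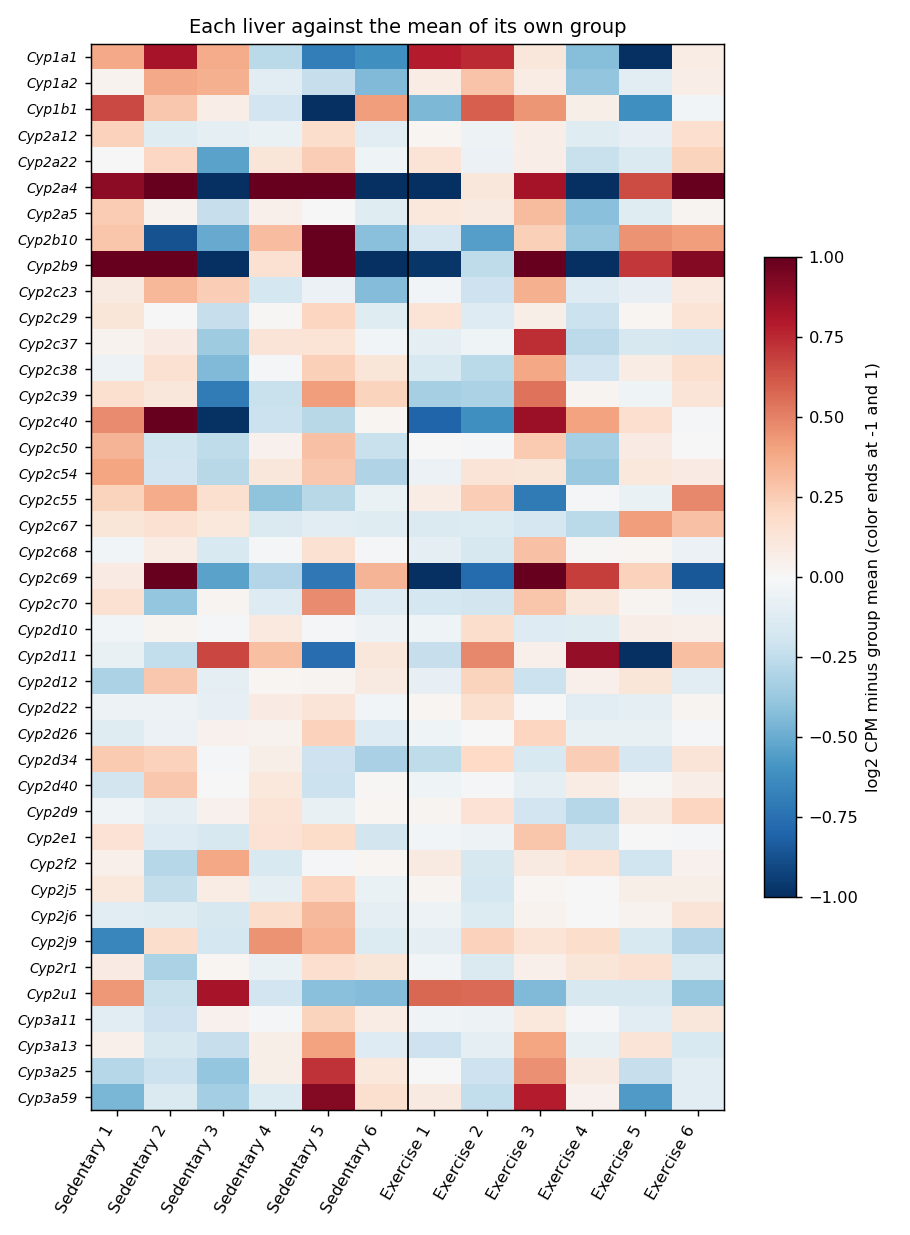
Deviation of each liver from the mean of its own group (log2 CPM, color ends at -1 and 1) for the 41 described genes in 12 livers. Sedentary 5 and Exercise 3 are mostly red, Exercise 4 mostly blue, and Cyp2a4 and Cyp2b9 change color most strongly from liver to liver.

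Motifs were also counted in the upstream sequence, which the choice by name did not use. Windows of 250 bases before the RefSeq start were at hand for 35 of the 41 genes, with 1 window for each. Some do not lie just before the gene as GENCODE places it. The window of Cyp2c39, at chr19:39347096-39347345, is apart from the placed gene (39510862 to 39568529), and its AGGTCA was counted. The windows of Cyp1a1, Cyp2c29 and Cyp2d9 lie inside the placed genes. All 32851 windows of that length served as the background, with no reduction to 1 per gene. TATAAA, on either strand, was found in 19 of the 35 (54.3%), against 12.4% of all windows. It was counted at any place in the window, also far from the start (base -234 for Cyp3a11). TTGCNNAA was found in 9 (25.7%, against 9.56%), and AGGTCA also in 9 (25.7%, against 14%). TGTTCT was found in 8 (22.9%, against 16.1%), and GCGTG in 5 (14.3%, against 28.2%). Many of these windows come from near-identical neighbours, such as those of Cyp2c40, Cyp2c67, Cyp2c68 and Cyp2c69, and are not independent of each other.

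The 18 genes below the count limit were low in both groups. The largest sums over 6 livers were 62.0 counts in exercised and 42.0 counts in sedentary livers for Cyp2s1, 57.4 and 41.4 for Cyp3a41b, and 36.0 and 58.0 for Cyp2g1. Cyp2ab1 had 17.0 counts in the exercised and 1.0 count in the sedentary livers. Cyp2b19 and Cyp2j12 had 1.0 count each over all 12 livers. The others were Cyp2b13, Cyp2b23, Cyp2c65, Cyp2c66, Cyp2j8, Cyp2j13, Cyp2t4, Cyp2w1, Cyp3a16, Cyp3a41a, Cyp3a44 and Cyp3a57. Cyp3a16, Cyp3a41a, Cyp3a41b and Cyp3a44 are known from female liver and, with Cyp2b13, are the 5 genes of the female-biased list that were not tested.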

How the data were processed

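Poly(A) RNA libraries of 12 livers were sequenced by the authors, whose processing notes list Bowtie2 2.3.4.3, RSEM 1.3.1 and mm10. The annotation and strand setting are not given in the sources used here. The deposited table holds an estimated count, not scaled between libraries and in 31.3% of values not whole, and an FPKM value for each gene and liver. The authors' FPKM is scaled for transcript length and depth. Each library had 18745379 to 19324461 counts, and 0 library pairs were identical.

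Groups were taken from the labels. Estimated counts were rounded and tested with edgeR 4.0.16 (TMM, filterByExpr at a minimum count of 10, quasi-likelihood fit with robust dispersion; R 4.3.3), exercise against sedentary as the only term, with Benjamini-Hochberg adjustment over 12344 genes and a threshold of 0.05. The biological coefficient of variation was 11.3%. The scripts were tested on simulated data. Exact permutation tests used log2(CPM + 0.5) over all relabellings, in scipy 1.17.1. Alternatives were RLE, upper quartile and library size scaling, 2 other filters, DESeq2 1.42.0, limma-voom and limma on log2(FPKM + 0.1) (limma 3.58.1), a replicate block, a threshold of 0.01 and each liver left out.

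Genes named in full are those past the threshold with an absolute log2 fold change of at least 0.5 and the 8 with the highest mean FPKM. Other members past the threshold were also given with their values. The members and all gene lists were chosen with earlier results of these data known. Gene positions and coding sequences are from GENCODE on GRCm38, where all 41 genes were placed, and upstream windows are from RefSeq.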

Additional observations from a re-analysis of the deposited data

Results flagged for a closer look

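A liver far from the other 5 of its group was found in 10 of 82 groups checked. The rule was Dixon's ratio of the gap to the range, above the 95% critical value for 6. About 1 in 20, or 4.1 groups, would pass by chance if the groups were independent and the values normal. The same livers recur over the genes and close relatives can share reads, so the groups are not independent. Of the 10 far livers, 6 were Exercise 3, which was the highest each time. For Cyp2c37 it was at 641 CPM, next to 374 CPM in the nearest exercised liver (ratio 0.834). The ratio was 0.741 for Cyp2d26 (1306 and 1130 CPM), 0.642 for Cyp2e1 (8796 and 7249 CPM), 0.64 for Cyp2c68 (359 and 297 CPM), 0.64 for Cyp2c69 (24.7 and 10.7 CPM) and 0.63 for Cyp3a59 (106 and 65.2 CPM). Sedentary 5 was the highest for the neighbouring genes Cyp3a59 (139 CPM, nearest 82.0 CPM, ratio 0.668) and Cyp3a25 (1273 CPM, nearest 829.2 CPM, ratio 0.651), which are 97.5% identical in coding sequence. Sedentary 3 was the lowest for Cyp2c37 (284 CPM, nearest 358 CPM, ratio 0.634), and Exercise 2 the lowest for Cyp2j5 (353 CPM, nearest 399 CPM, ratio 0.734). None of these genes was among the 8 called.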

How the results depend on the processing

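Of 900 values of single P450 genes under the alternatives, 841 kept direction and side of the threshold, 11 lost and 7 gained a call, and 41 changed sign, none of these past the threshold or among the 8 called genes. At an adjusted p under 0.01, 5 of the 41 genes were called, 1 of them higher, and 2 genes of the other P450 families. Leaving out each liver gave 7 to 10 called genes (5 to 7 lower, 2 to 4 higher, with 4 without Sedentary 5), 5 to 8 in the other families (5 without Sedentary 3, Exercise 2 or Exercise 5), 5 to 7 partners and regulators, 2 to 4 CAR and PXR targets and 4739 to 5222 of all genes. Signs of the log2 fold change turned with library size alone for Cyp2a22 (-0.013), Cyp2a5 (-0.083), Cyp2c68 (-0.047), Cyp2c70 (-0.068) and Cyp2d10 (-0.035), with upper quartile factors for Cyp2a5 (-0.0051), on FPKM for Cyp2a5 (-0.088), Cyp2c37 (-0.017), Cyp2c68 (-0.045), Cyp2c70 (-0.058) and Cyp2d10 (-0.041), and for Cyp2c54 with limma-voom (0.0071) and the replicate block (0.0076). Leaving out both Exercise 1 and 3, chosen after seeing the data, gave -0.090 for Cyp2a5, -0.087 for Cyp2c37 and -0.0045 for Cyp2c70. With 1 liver left out, values ran from -0.033 to 0.045 for Cyp2a12, -0.0049 to 0.14 for Cyp2a22, -0.046 to 0.096 for Cyp2a5, -0.072 to 0.17 for Cyp2c37, -0.065 to 0.078 for Cyp2c54, -0.0076 to 0.088 for Cyp2c68, -0.047 to 0.14 for Cyp2c70, -0.093 to 0.049 for Cyp2f2, -0.093 to 0.0012 for Cyp2j5 and -0.067 to 0.039 for Cyp2j6. The cause of these changes was not tested. The replicate numbers did not pair the livers (correlations of same-numbered livers from -0.093 to 0.16, own number best in 1 of 6). With the replicate block 7 P450 genes were called (2 higher, 5 lower), without Cyp2c67 (adjusted p = 0.0646), and 4956 of all genes. Depth limits mainly Cyp2d11 and Cyp1b1, with means of 12.2 and 15.4 counts. Among the called genes, counts were lowest for Cyp2u1 (mean of 54.6, 22 in its lowest liver) and Cyp2c55 (mean of 104.6, 39 in its lowest liver).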
